A study of Arabidopsis thaliana with 48 samples.

Results

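Roots of Arabidopsis seedlings labelled as the eil3 eil1 double mutant were compared with roots of the wild type Col-0, both grown on low sulfate. The comparison takes 6 of the 48 RNA-seq libraries of the series, 3 of each group, chosen by the genotype, treatment and organ in the sample labels, and covers all 33602 loci of the deposited table, of which 21954 held enough counts to be tested. The series holds shoots and roots of Col-0, of the T-DNA insertion lines eil1 (locus AT2G27050, allele SALK_042113) and eil3 (locus AT1G73730, allele SALK_089129), and of eil3 eil1, each at 2 sulfate levels with 3 biological replicates. Plants were 18 days old, grown on agarose plates of modified Long Ashton medium at 22 °C in long days of 16 h light. Low sulfate (-S) was 0.015 mM MgSO4 with 0.75 mM MgCl2, and full sulfate (+S) was 0.75 mM MgSO4 without added MgCl2, so that both groups compared here carried the extra chloride. The labels describe eil3 eil1 as the double mutant of the T-DNA lines and give neither the position of the insertions nor the number of plants behind a library. The 6 libraries held 28320392 to 36728616 estimated counts, a depth at which the precision is set mostly by the spread between libraries for all but the low loci.

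EIL1 and EIL3 belong to the EIN3-like family of plant transcription factors. EIL1 acts beside EIN3 at the end of the ethylene signalling pathway, and EIL3, also called SLIM1, is known as a regulator of the sulfur deficiency response. A plant short of sulfate is known to raise its sulfate uptake and reduction, to draw on sulfate in the vacuole and on sulfur held in glutathione and glucosinolates, and to slow the synthesis of glucosinolates, the sulfur-rich defence compounds of the cabbage order. Root uptake from the medium is the first of these steps.

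The transcript of EIL1 was lower in the eil3 eil1-labelled roots, while that of EIL3 was not. EIL1 (AT2G27050) stood at 55.4, 51.9 and 60.4 CPM (counts scaled to a common library total with TMM factors) in the Col-0 -S libraries and at 21.7, 17.4 and 19.4 CPM in the eil3 eil1-labelled ones. The groups did not overlap, and the log2 fold change was -1.52 ± 0.10 (SE; edgeR quasi-likelihood test, Benjamini-Hochberg adjusted p = 5.4e-10). EIL3 (AT1G73730) stood at 21.6, 22.9 and 22.3 CPM in Col-0 and at 22.4, 21.0 and 20.3 CPM in the eil3 eil1-labelled libraries. These values overlapped and the difference was -0.07 ± 0.1 (adjusted p = 0.736). Here and in what follows, ± beside a CPM value is the SD of 3 libraries and ± beside a log2 fold change is its SE, adjusted p-values are edgeR's over all loci tested, and a gene rose or fell where that p passed 0.05. The EIL3 transcript thus goes against the label, and the libraries are called eil3 eil1-labelled throughout. In the single line labelled eil3 the EIL3 level at -S was 14.8 ± 2.60 CPM (SD, n = 3), and in the eil1-labelled line EIL1 stood at 43.0 ± 5.72 CPM, beside 55.9 ± 4.27 CPM in Col-0. At +S EIL1 stood at 51.4 ± 2.25 CPM in the eil1-labelled line and 51.4 ± 1.46 CPM in Col-0, so its transcript was not lost there and goes against the eil1 label as well, and the single lines are likewise called by their labels. The counts are over whole loci, so they do not show from which stretch of a transcript the reads came.

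In total 2651 of 21954 loci, 12.1% of those tested, passed an adjusted p of 0.05, 1332 higher (6.07%) and 1319 lower (6.01%) in the eil3 eil1-labelled roots. Most differences were small. The median size among the loci that passed was 0.51 on the log2 scale, and 246 loci were higher and 300 lower by a log2 fold change of at least 1. The largest differences were on the lower side, where 42 loci were past a log2 of 3, against 21 on the higher side. Library values of the groups did not overlap at 6482 loci, 29.5% of those tested. Without Col-0 -S replicate 2 the lower loci numbered 858 and the higher ones 928. In bulk RNA such as this, fewer cells of a type and less RNA per cell cannot be told apart, which holds for every difference reported here.

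**Figure D1:**
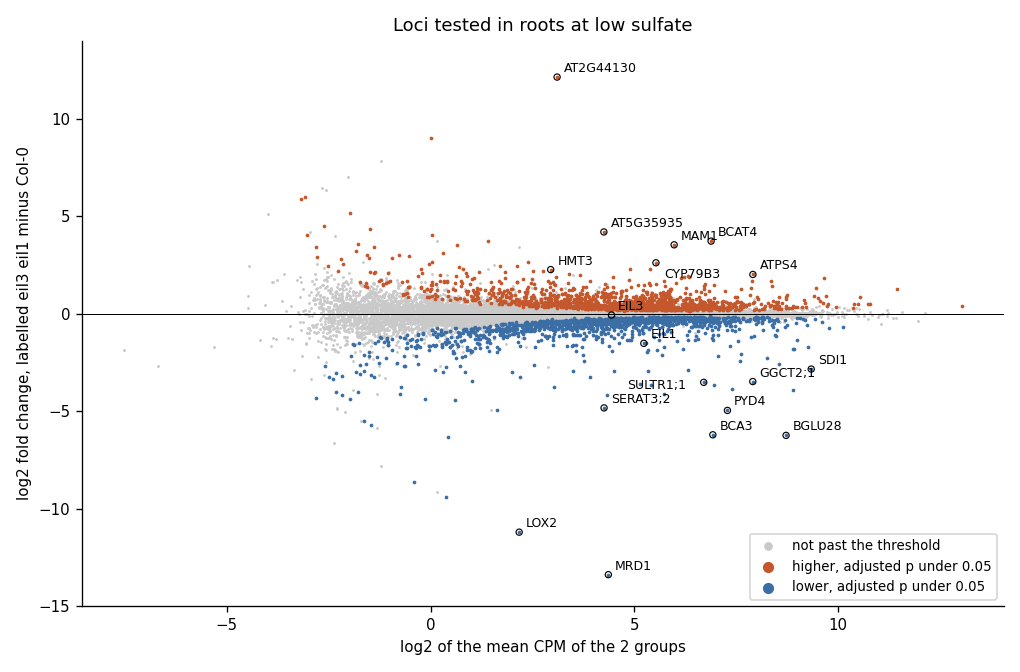
Log2 fold change of each tested locus (eil3 eil1-labelled minus Col-0, roots at -S) against the log2 of the mean CPM of the 6 libraries, with loci past an adjusted p of 0.05 in colour and some loci circled and named. BGLU28, BCA3 and PYD4 lie far below 0 at high levels and BCAT4 and MAM1 above it, EIL3 sits at 0, and the 2 loci with no count in either group are not drawn.

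Genes of the O-acetylserine cluster (OAS cluster), which are known to be induced together in sulfur shortage, were lower throughout. All 7 members fell in the eil3 eil1-labelled roots, against 6.01% of all loci tested, and in each of them the 3 eil3 eil1-labelled libraries lay below the 3 Col-0 libraries, as at 14.8% of all loci. The median log2 fold change of the list was -2.41, beside -0.00 over all loci. SDI1 (AT5G48850), a repressor of glucosinolate synthesis, held 953, 1213 and 1254 CPM in the Col-0 libraries and 136, 179 and 163 CPM in the eil3 eil1-labelled ones. Every eil3 eil1-labelled library thus lay far below every Col-0 library, and the difference was -2.84 ± 0.19 (adjusted p = 3.23e-10).

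GGCT2;1 (AT5G26220), which breaks glutathione down in the cytosol, had the largest difference of the cluster, from 441 ± 82 to 39.5 ± 9.72 CPM (-3.48 ± 0.22). SHM7 (AT1G36370), annotated as a serine hydroxymethyltransferase, held 566, 698 and 667 CPM in Col-0 and 111, 107 and 107 CPM in the eil3 eil1-labelled roots, with almost no spread among the latter (-2.57 ± 0.088, adjusted p = 7.63e-15). LSU1 and LSU2, small proteins named for their response to low sulfur, fell by similar amounts, LSU1 from 327 ± 51.8 to 61.5 ± 8.22 CPM and LSU2 from 320.2 ± 37.3 to 75.6 ± 9.39 CPM. Reads can be shared between such similar copies, so the split between LSU1 and LSU2 is uncertain. The remaining members moved less. APR3, an adenosine phosphosulfate reductase, differed by -0.58 ± 0.093 (from 519 ± 22.5 to 347 ± 35.0 CPM) and AT1G04770, a tetratricopeptide repeat protein, by -0.43 ± 0.081.

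**Figure D2:**
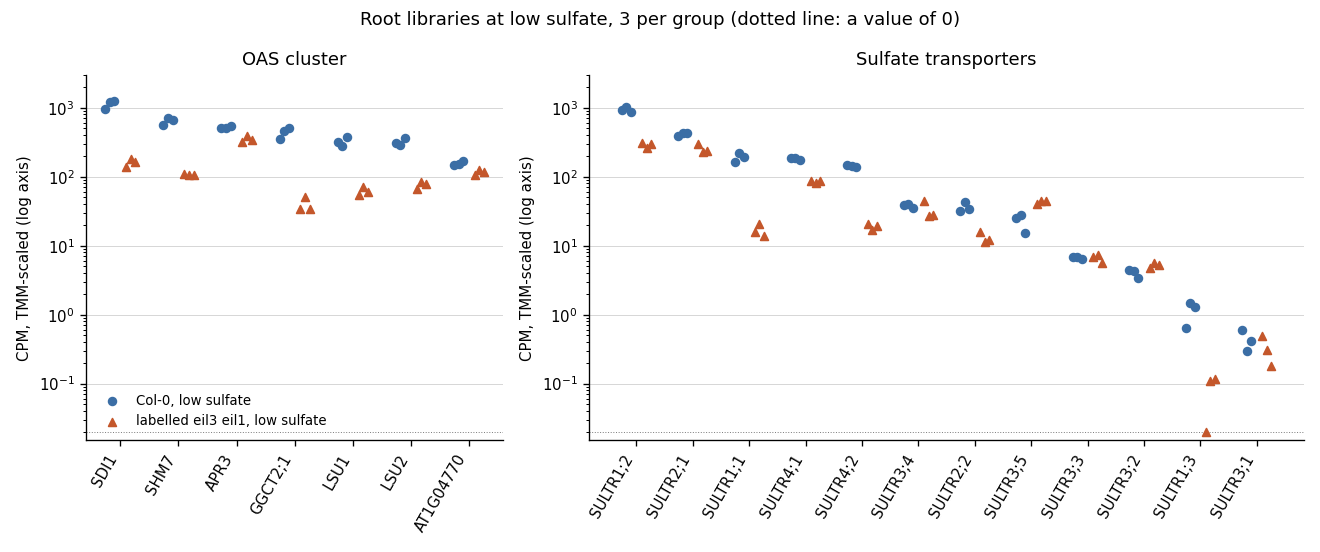
Level in each of the 6 root libraries at -S (CPM on a log axis, dots for Col-0 and triangles for eil3 eil1-labelled) for the OAS cluster and the sulfate transporters. All 7 OAS cluster genes sit lower in every eil3 eil1-labelled library, SULTR1;1 and SULTR4;2 show the widest gaps among well expressed transporters, and SULTR3;5 lies the other way.

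The promoters of SDI1, SHM7 and SULTR1;1 are shown as examples of OAS cluster and sulfate transport genes with large losses at high levels. Other genes fell further than SDI1 and SHM7, as GGCT2;1 of the same cluster (-3.48) and BGLU28, given below. Each is the 250 bases before the annotated gene start in TAIR10.1 (RefSeq), read 5′ to 3′ on the gene's strand. Capitals mark the sulfur-responsive element core GAGAC, searched on both strands, or 1 of 8 words of an EIN3-like binding motif (ATGTATCT, ATGTACCT, ATGAATCT, ATGAACCT, ACGTATCT, ACGTACCT, ACGAATCT and ACGAACCT), also on both strands. SDI1 lies on the minus strand of chr5:19807854-19808103, SHM7 on the minus strand of chr1:13698740-13698989 and SULTR1;1 on the plus strand of chr4:5500063-5500312.
SDI1: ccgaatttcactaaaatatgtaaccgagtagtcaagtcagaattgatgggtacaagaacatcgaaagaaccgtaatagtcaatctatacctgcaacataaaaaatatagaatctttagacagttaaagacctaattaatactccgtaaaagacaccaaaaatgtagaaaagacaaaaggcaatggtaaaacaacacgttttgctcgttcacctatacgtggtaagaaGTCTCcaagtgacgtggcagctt
SHM7: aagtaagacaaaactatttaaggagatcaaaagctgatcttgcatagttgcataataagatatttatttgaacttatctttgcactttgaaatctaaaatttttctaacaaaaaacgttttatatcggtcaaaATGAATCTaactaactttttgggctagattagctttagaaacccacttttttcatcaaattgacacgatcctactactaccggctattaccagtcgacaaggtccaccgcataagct
SULTR1;1: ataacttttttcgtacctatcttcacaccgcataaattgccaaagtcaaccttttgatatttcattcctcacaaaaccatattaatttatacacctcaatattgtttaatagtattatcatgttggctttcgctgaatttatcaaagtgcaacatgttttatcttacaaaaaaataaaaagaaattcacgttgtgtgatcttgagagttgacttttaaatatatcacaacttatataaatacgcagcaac

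SDI1 held 1 GAGAC core, on the opposite strand (GTCTC), SHM7 held 1 of the 8 words, ATGAATCT, and neither motif was found in the window of SULTR1;1. The GAGAC core was present in 25.4% of the promoters of all tested loci with a window, in 23.2% of those lower by a log2 of at least 1 and in 20.8% of those higher by that much. The 8 words were present in 5.76%, 7.07% and 9.39% of the same sets. A match says only that these letters occur in the window.

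Sulfate transporters were lower for 7 of 12 members and higher for 1, against 6.01% and 6.07% of all loci, with a median of -0.90. The pair that takes sulfate up from the soil solution was lower. SULTR1;1 (AT4G08620) held 162, 224 and 190.2 CPM in Col-0 and 15.6, 20.8 and 13.7 CPM in the eil3 eil1-labelled libraries, so that the groups lay far apart (-3.52 ± 0.20, adjusted p = 2.82e-11). SULTR1;2 (AT1G78000) held 914, 1012 and 875 CPM in Col-0 and 306, 259 and 293 CPM in the eil3 eil1-labelled libraries, again without overlap (-1.70 ± 0.12). SULTR1;3, a phloem transporter, was low in all libraries (0.638, 1.46 and 1.298 CPM in Col-0 against 0, 0.111 and 0.118 CPM), and its fold change of -3.75 ± 0.91 is correspondingly loose.

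The vacuolar exporters SULTR4;1 and SULTR4;2, which release stored sulfate, were both lower. SULTR4;2 (AT3G12520) went from 146, 141 and 138 CPM to 20.8, 17.0 and 19.2 CPM (-2.90 ± 0.10), and SULTR4;1 (AT5G13550) from 183 ± 5.56 to 85.2 ± 3.21 CPM (-1.10 ± 0.079). Of the vascular transporters, SULTR2;2 fell from 36.2 ± 5.36 to 13.1 ± 2.29 CPM (-1.48 ± 0.13) and SULTR2;1 (AT5G10180) from 418 ± 26.4 to 256 ± 36.4 CPM (-0.70 ± 0.16, adjusted p = 0.00431). SULTR3;5, which is known to aid SULTR2;1 in root-to-shoot transport, was the single member that rose, from 25.5, 27.4 and 15.3 CPM to 39.6, 44.7 and 45.1 CPM (0.93 ± 0.22, adjusted p = 0.00643). The other group 3 transporters SULTR3;1, SULTR3;2, SULTR3;3 and SULTR3;4 did not pass, with log2 fold changes of -0.47, 0.38, -0.03 and -0.23. SULTR3;4 passed on the lower side without eil3 eil1-labelled replicate 1 (-0.49, adjusted p = 0.00578).

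Sulfate assimilation split into both directions. Of 20 genes 6 rose and 9 fell, against 6.07% and 6.01% of all loci, and the median was 0.01. The largest loss was that of SERAT3;2 (AT4G35640), a serine acetyltransferase that makes the OAS skeleton of cysteine, with 32.9, 37.7 and 40.4 CPM in Col-0 and 0.799, 1.49 and 1.54 CPM in the eil3 eil1-labelled libraries (-4.83 ± 0.22, adjusted p = 8.48e-13). Its relative SERAT3;1 fell from 62.5 ± 2.85 to 26.8 ± 0.480 CPM (-1.22 ± 0.092). APR2 (AT1G62180), the main adenosine phosphosulfate reductase of the plant, held 237, 253 and 255 CPM in Col-0 and 70.5, 85.96 and 76.8 CPM in the eil3 eil1-labelled libraries, and the groups lay far apart (-1.68 ± 0.067). APR1, from the same family, differed by less (-0.42 ± 0.074).

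ATP sulfurylases, which activate sulfate and open the pathway, moved in opposite directions. ATPS4 (AT5G43780) held 101, 92.2 and 93.7 CPM in Col-0 and 404, 374 and 379.8 CPM in eil3 eil1-labelled libraries. The groups lay far apart, and the rise was the largest of the list (2.01 ± 0.091, adjusted p = 6.2e-13). ATPS3 (AT4G14680) fell from 40.4 ± 4.11 to 15.8 ± 0.881 CPM (-1.35 ± 0.11), ATPS2 rose by 0.47 ± 0.057, and ATPS1 did not pass (0.13 ± 0.065). APS kinases feed activated sulfate to sulfation reactions such as glucosinolate synthesis, and among them APK2 rose from 35.2 ± 3.45 to 77.5 ± 9.29 CPM (1.14 ± 0.082) while APK1 fell (-0.48 ± 0.065).

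The miR395 family is known to target ATP sulfurylases and SULTR2;1, and its precursor loci are in the table, so their counts are given although they were looked up after other values had been seen. Over the 6 annotated precursors and 3 libraries, Col-0 -S roots held 215 counts, eil3 eil1-labelled -S roots 2, eil3-labelled -S roots 0 and eil1-labelled -S roots 75, and no count was found in Col-0 or eil3 eil1-labelled roots at +S. MIR395e, the single precursor with enough counts to be tested, held 25, 53 and 66 counts in the Col-0 -S libraries and 0 in each eil3 eil1-labelled one. Its level was at least 49.8-fold lower, taking 3 counts over the eil3 eil1-labelled group as the floor (adjusted p = 0.00702). These are counts of messenger-type reads on precursors, not of mature miRNA. The annotated mature RNAs come in 2 forms with the same seed (bases 2 to 8, in capitals), written as DNA from TAIR10.1. Below them stand, on the sense strand, the stretches of ATPS4 (chr5:17591121-17591141, minus strand), ATPS1 (chr3:8113164-8113184, plus strand) and SULTR2;1 (chr5:3193268-3193288, plus strand) that best match the reverse complement of a mature form, with matching bases in capitals.
miR395a, d and e: cTGAAGTGtttgggggaactc
miR395b, c and f: cTGAAGTGtttggggggactc
ATPS4: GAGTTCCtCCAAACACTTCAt
ATPS1: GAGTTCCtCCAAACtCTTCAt
SULTR2;1: aAGTTCtCCCAAACACTTCAa

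ATPS4 had 2 mismatches in this stretch, ATPS1 had 3 and SULTR2;1 had 3. ATPS3, which fell, also had 3, and ATPS2, which rose, had 8 at its best match. The part of miR395 in these directions was not tested.

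Of 10 glutathione genes 1 rose and 2 fell, with a median of 0.02. The 1 of 10 is near the 6.07% of all loci that were higher, and 6.01% of all loci were lower. Both members that fell break glutathione down. They were GGCT2;1, given above, and GGCT2;2, which went from 478 ± 59.6 to 228 ± 19.0 CPM (-1.07 ± 0.12). AT1G44790, annotated as ChaC-like as both of these are, held 25.9, 26.2 and 25.5 CPM in Col-0. In the eil3 eil1-labelled roots it held 29.9, 28.1 and 32.5 CPM, above Col-0 without overlap. Its difference of 0.22 ± 0.074 did not pass (adjusted p = 0.0505), but DESeq2 called it higher (adjusted p = 0.0373). The edgeR fits with RLE factors (0.0473) and without eil3 eil1-labelled replicate 2 (0.031) did so too. The transpeptidase GGT1 did not pass (-0.10 ± 0.077). GSH1, the first enzyme of glutathione synthesis, rose from 181 ± 6.69 to 245 ± 13.5 CPM (0.44 ± 0.061, adjusted p = 2.99e-05). In methionine metabolism 3 of 10 members rose and 0 fell, against the same 6.07% and 6.01% of all loci, with a median of 0.12. HMT3, a homocysteine methyltransferase that makes methionine, held 2.84, 3.06 and 2.09 CPM in Col-0 and 12.2, 12.4 and 13.7 CPM in the eil3 eil1-labelled roots, with no overlap (2.26 ± 0.14). The committing enzyme CGS1 rose by 0.37 ± 0.061 and the next enzyme CBL by 0.23 ± 0.058, a call lost without Col-0 -S replicate 2 (adjusted p = 0.0727) and without eil3 eil1-labelled replicate 2 (adjusted p = 0.0638).

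Aliphatic glucosinolate genes, which make these compounds from methionine, were higher as a group. Of 27 members 24 were tested, and 20 of these rose while 1 fell, against 6.07% and 6.01% of all loci, with a median of 1.38. MYB29, MYB76 and AOP3 did not hold enough counts. BCAT4 (AT3G19710), the aminotransferase that leads methionine into the pathway, held 15.5, 18.9 and 15.6 CPM in the Col-0 libraries and 199, 230.3 and 231 CPM in the eil3 eil1-labelled ones. The groups were far apart, and the difference was 3.72 ± 0.15 (adjusted p = 1.57e-13). MAM1 (AT5G23010), which lengthens the methionine chain, went from 11.8, 10.2 and 8.17 CPM to 117, 114 and 117 CPM (3.53 ± 0.13), and its neighbour and close relative MAM3 from 114 ± 9.55 to 358 ± 13.9 CPM (1.65 ± 0.095); reads may be shared between the pair.

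In the core pathway, CYP79F2 and CYP83A1, the cytochromes P450 that form and convert the aldoximes, rose by 1.83 ± 0.12 (from 31.1 ± 6.44 to 110.3 ± 8.95 CPM) and 1.41 ± 0.095 (from 57.0 ± 5.39 to 152 ± 11.98 CPM). The near copy CYP79F1 was listed at 0.0106 and 0.495 CPM, and how reads were split between CYP79F1 and CYP79F2 is uncertain. GSTU20, a glutathione transferase linked to the pathway, rose by 1.48 ± 0.082. The other members that rose lay between 0.27 and 2.38, apart from CYP79F1. MYB28 (AT5G61420), the main activator of these genes, was the single member that fell, named here after its values were seen. It went from 107, 115 and 100.1 CPM to 47.0, 52.8 and 51.8 CPM (-1.09 ± 0.11, adjusted p = 2.02e-07), with no overlap, opposite in direction to the enzymes. The members that did not pass were FMO-GSOX2, FMO-GSOX4 and FMO-GSOX5, at -0.01, -0.28 and -0.07.

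Indolic glucosinolate genes, which start from tryptophan, rose for 11 of 18 members and fell for 1, with a median of 0.64, where 6.07% of all loci were higher and 6.01% lower. The entry enzymes led. CYP79B3 (AT2G22330) held 14.5, 14.3 and 10.3 CPM in Col-0 and 74.5, 82.4 and 81.7 CPM in the eil3 eil1-labelled roots, without overlap (2.61 ± 0.14, adjusted p = 1.56e-11), and CYP79B2 (AT4G39950) rose from 34.6 ± 5.14 to 129 ± 9.58 CPM (1.90 ± 0.11). CYP83B1, the next enzyme, rose by 0.60 ± 0.078, the glutathione transferase GSTF9 by 0.82 ± 0.078 and the methyltransferase IGMT1 by 1.18 ± 0.19, whose close copy IGMT2 may share its reads. MYB34, an activator of the indolic branch, rose from 67.4 ± 4.89 to 103 ± 5.18 CPM (0.61 ± 0.075), unlike MYB28 of the aliphatic branch. GGP1, a peptidase that serves both branches, was the member that fell (-0.32 ± 0.057), and it was named after its values were seen. Tryptophan and camalexin genes rose for 3 of 9 members and fell for 0, beside the same shares of all loci (median 0.24), and the 3 were the tryptophan synthesis enzymes ASA1 (0.66 ± 0.069), TSB1 (0.62 ± 0.083) and TSA1 (0.42 ± 0.053).

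The promoter of BCAT4, the first enzyme of the aliphatic branch, is shown for the gene with the largest rise at a high level. It is the 250 bases before the gene start on the minus strand of chr3:6849583-6849832 (TAIR10.1, RefSeq, 5′ to 3′), with 1 match in capitals to the word ACGTATCT, found on the opposite strand.
BCAT4: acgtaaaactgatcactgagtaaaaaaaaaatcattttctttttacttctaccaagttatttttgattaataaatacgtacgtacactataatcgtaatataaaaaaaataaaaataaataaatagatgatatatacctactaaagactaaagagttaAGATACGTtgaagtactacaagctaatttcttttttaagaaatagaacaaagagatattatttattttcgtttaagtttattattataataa

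Glucosinolate breakdown genes fell for 5 and rose for 3 of 15 tested members, against 6.01% and 6.07% of all loci, and TGG2 and ESP did not hold enough counts. BGLU28 (AT2G44460), a beta-glucosidase tied to glucosinolate use under sulfur shortage, held 558, 903 and 1047 CPM in Col-0 and 11.7, 11.99 and 9.38 CPM in the eil3 eil1-labelled roots. The Col-0 libraries varied widely among themselves and still lay far above the others (-6.24 ± 0.51, adjusted p = 1.1e-08). BGLU30, a related glucosidase, went from 178, 358 and 413 CPM to 25.8, 24.1 and 16.4 CPM (-3.84 ± 0.39). The nitrile-specifier protein NSP5 fell from 504 ± 93.5 to 104 ± 9.15 CPM (-2.28 ± 0.13) and the nitrilase NIT3 changed by -0.79 ± 0.09.

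NSP1 rose from 582 ± 79.5 to 924 ± 50.8 CPM (0.67 ± 0.17, adjusted p = 0.0123), but not without Col-0 -S replicate 2 (adjusted p = 0.0504) or replicate 3 (adjusted p = 0.0654). BGLU22 and PYK10, glucosidases of root ER bodies, rose by 0.54 ± 0.11 and 0.40 ± 0.11, and the nitrilase NIT1 fell (-0.31 ± 0.084).

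Of 11 tested genes of ethylene synthesis 2 rose and 0 fell (median 0.23), and of 18 signalling and target genes 3 rose and 0 fell (median 0.09), against 6.07% of all loci higher and 6.01% lower. ACO5, an ACC oxidase, rose by 0.38 ± 0.12 (adjusted p = 0.0422), a call lost when any of the 6 libraries was left out (adjusted p from 0.0593 to 0.15). EDF4 (AT1G13260), a DNA-binding protein named as an ethylene response factor, went from 27.4, 23.7 and 28.8 CPM to 50.7, 47.7 and 60.6 CPM (0.99 ± 0.14), with no overlap. EDF1 rose by 0.56 ± 0.14, lost without Col-0 -S replicate 2 (adjusted p = 0.0762) and without eil3 eil1-labelled replicate 3 (adjusted p = 0.0622). The ethylene receptor ETR1 was higher by 0.21 ± 0.065, a small difference that was lost without Col-0 -S replicate 2 or 3 or eil3 eil1-labelled replicate 1 or 3 (adjusted p from 0.0734 to 0.12).

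Jasmonate genes fell for 5 of 13 members and rose for 0, with a median of -0.06, against 6.01% of all loci lower and 6.07% higher. AOC2, an allene oxide cyclase of jasmonate synthesis, went from 21.8, 20.04 and 15.1 CPM to 9.001, 6.26 and 8.26 CPM (-1.28 ± 0.15). LOX2 (AT3G45140), a lipoxygenase of green tissue, held 17.3, 9.69 and 0.158 CPM in the Col-0 libraries and 0 in each eil3 eil1-labelled one, so it was at least 297-fold lower against a floor of 3 counts over the group, and its level differed by a wide margin among the Col-0 libraries. Transcripts of green tissue were also least in Col-0 replicate 3, as for LHCB1.1 of the light-harvesting antenna with 11.1, 24.5 and 2.79 CPM and RBCS2B of rubisco with 1.97, 4.07 and 0.0633 CPM, against 2.26, 1.27 and 2.19 CPM and 0.487, 0.0831 and 0.414 CPM in the eil3 eil1-labelled libraries. Summed over the 20 photosynthesis genes the levels were 1540.3, 1724 and 1295 CPM in Col-0 and 1631, 1271 and 1628 CPM in the eil3 eil1-labelled libraries, so that the sums overlapped, and no gene of that list was at 0 in either group. LHCB1.1 had the lowest fold change of that list (-2.75), whose median was -0.08 and highest value 0.39. Reads can be shared between close copies in these families, so the levels of LHCB1.1 and RBCS2B are uncertain. At +S the fold change of LOX2 was 2.58, the highest of the jasmonate list and opposite in direction. Its +S test and its interaction test did not both pass. The part of green tissue in the LOX2 difference at -S was not tested. The storage protein VSP2 fell from 204 ± 10.6 to 130.4 ± 20.6 CPM (-0.65 ± 0.15). AOC1 stood at 2.99, 1.01 and 0.158 CPM in Col-0 and 0.243, 0.166 and 0.296 CPM in the eil3 eil1-labelled roots, overlapping, with a call lost without Col-0 -S replicate 1 (adjusted p = 0.3) or any eil3 eil1-labelled library (0.0572 to 0.0861). MYC2, a transcription factor of jasmonate responses, held 68.3, 69.3 and 83.5 CPM in Col-0 and 91.99, 85.8 and 108 CPM in the eil3 eil1-labelled roots, without overlap. Its difference of 0.37 ± 0.14 did not pass (adjusted p = 0.0844), but was called higher by DESeq2 (adjusted p = 0.0476), in the edgeR fit of the compared groups alone (0.0408) and with the replicate block (0.00101). JAR1, which activates jasmonate, differed by -0.21 ± 0.055, lost without Col-0 -S replicate 2 (adjusted p = 0.105) and eil3 eil1-labelled replicates 1 and 2 (0.0565 and 0.0606).

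Nitrogen uptake and assimilation genes were lower for 6 of 11 members (6.01% of all loci) and higher for 0, with a median of -0.43. The reductases NIA1, NIA2 and NIR1 and the transporters NRT1.1 and AMT1;1 did not pass. NRT2.4 (AT5G60770), a high-affinity nitrate transporter of the root surface, held 7.05, 7.58 and 6.59 CPM in Col-0 and 0.487, 1.22 and 0.918 CPM in the eil3 eil1-labelled roots, without overlap (-2.98 ± 0.33, adjusted p = 1.46e-06). NRT1.5, which loads nitrate into the xylem, fell from 437, 383 and 394 CPM to 225, 283 and 295 CPM (-0.60 ± 0.14). The main nitrate uptake transporter NRT2.1 stood at 1547, 1396 and 1201 CPM in Col-0 and 628, 1027 and 951 CPM in the eil3 eil1-labelled roots (-0.67 ± 0.18, adjusted p = 0.0186), and its call was lost without Col-0 -S replicate 1 (adjusted p = 0.0812) or 2 (0.0543) or eil3 eil1-labelled replicate 1 (0.115).

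The ammonium transporter AMT1;3 differed by -0.43 ± 0.11, lost without Col-0 -S replicate 1 (adjusted p = 0.0697) and without eil3 eil1-labelled replicate 1 (0.0969). The remaining calls, NRT2.2 and AMT1;5, were at low levels (2.36 ± 0.175 and 0.673 ± 0.474 CPM in Col-0) and were lost without most of the 6 libraries in turn (adjusted p from 0.0559 to 0.249). The 4 tested genes of phosphate starvation had 0 calls by edgeR, DESeq2 and limma-trend, and their median was -0.18. Of these genes 1 had an unadjusted edgeR p under 0.05, as had 5406 of all 21954 loci. Of 16 tested iron and copper genes 3 fell and 0 rose, against 6.01% and 6.07% of all loci. They were NAS2 (-0.60 ± 0.12), NAS1 (-0.42 ± 0.12), both enzymes that make the metal chelator nicotianamine, and FIT (-0.41 ± 0.089), the regulator of iron uptake. The call of NAS1 was lost without Col-0 -S replicate 1 (adjusted p = 0.0813) or 2 (0.105) or eil3 eil1-labelled replicate 1 (0.168).

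Markers of root cell types were present. Suberin and Casparian strip genes, made by the endodermis, summed to 1095 to 1237 CPM in the Col-0 -S libraries and to 1089.6 to 1185 CPM in the eil3 eil1-labelled ones, with 1 of 17 higher, a share near the 6.07% of all loci, and 2 lower, against 6.01% of all loci. The Casparian strip protein CASP5 rose from 2.79 ± 0.243 to 8.30 ± 1.31 CPM (1.57 ± 0.28), and the fatty acid reductases FAR1 and FAR4 fell (-0.48 ± 0.14 and -0.27 ± 0.081). The FAR1 and FAR4 calls were lost without Col-0 -S replicate 2 or 3 or eil3 eil1-labelled replicate 2 or 3 (adjusted p from 0.0747 to 0.183). Root hair markers fell for 2 of 7 members, beside the same 6.01% of all loci. They were RHD6 (-0.51 ± 0.10), which sets root hair fate, and LRX1 (-0.50 ± 0.15), whose call was lost without Col-0 -S replicate 1 (adjusted p = 0.0599) or 2 (0.104) or eil3 eil1-labelled replicate 1 (0.0744) or 3 (0.16). Their sum was 281 to 303 CPM in Col-0 and 218 to 254 CPM in the eil3 eil1-labelled libraries, so that the groups did not overlap.

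Xylem markers summed to 131 to 192 CPM in Col-0 and 182 to 259 CPM in the eil3 eil1-labelled roots, with 0 of 6 called by edgeR with all libraries and the count filter and by limma-trend, and 2 at an unadjusted edgeR p under 0.05. Of all 21954 loci tested, 5406 were under that unadjusted p. The xylem peptidases XCP1 (0.42 ± 0.14, adjusted p = 0.0563) and XCP2 (0.47 ± 0.17, adjusted p = 0.0668) lay near the threshold. DESeq2 called both higher (adjusted p = 0.0261 and 0.0304). edgeR called XCP1 without the count filter (adjusted p = 0.0484), without Col-0 -S replicate 1 (0.0395) and without eil3 eil1-labelled replicate 2 (0.0344), and XCP2 without eil3 eil1-labelled replicate 2 (0.0468) or 3 (0.0478). The phloem loader SUC2 was higher (0.52 ± 0.14), a call lost without Col-0 -S replicate 2 (adjusted p = 0.0753) or 3 (0.0809) or eil3 eil1-labelled replicate 1 (0.133), and APL and SEOR1 did not pass. Root cap and meristem markers summed to 97.9 to 105 CPM and 93.2 to 105 CPM, with 0 of 6 called by edgeR, DESeq2 or limma-trend and 0 at an unadjusted edgeR p under 0.05. The 20 photosynthesis genes, markers of green tissue, summed to 1295 to 1724 CPM in Col-0 and 1271 to 1631 CPM in the eil3 eil1-labelled roots, against 74816 to 90006 CPM in Col-0 -S shoots, and 0 of 20 were called by edgeR in the fit of all root groups, DESeq2 or limma-trend (1 at an unadjusted edgeR p under 0.05). In the edgeR fit of the compared groups alone LHCB1.1 (-2.75, adjusted p = 0.0215 against 0.152 in the fit of all root groups) and LHCB1.2 (-1.08, adjusted p = 0.0467 against 0.443) were called lower. Reads can be shared between these close copies. No marker of any of these lists was at 0 across a group.

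**Figure D3:**
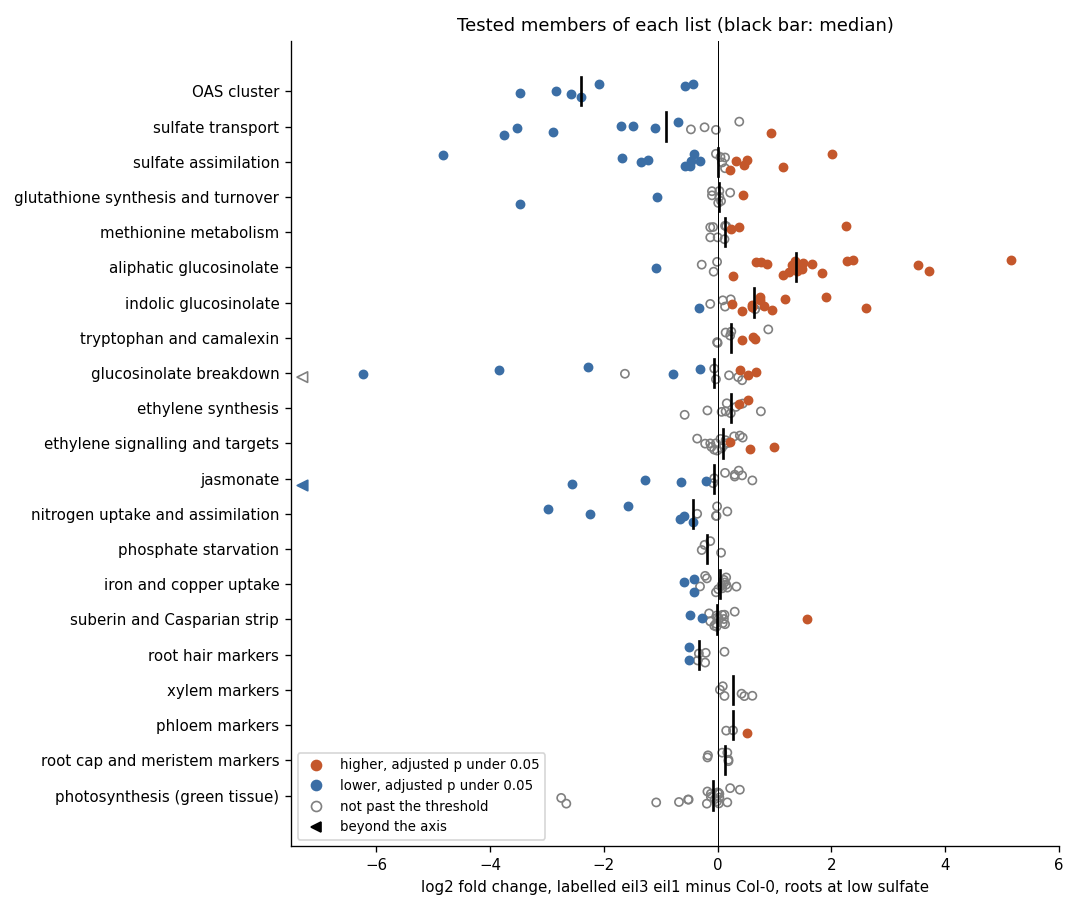
Log2 fold change of each tested member of the gene lists (eil3 eil1-labelled minus Col-0, roots at -S), with orange for higher and blue for lower past an adjusted p of 0.05, open circles for the rest and a black bar at the list's median. The OAS cluster lies wholly left of 0, the glucosinolate lists mostly to the right, and the assimilation list on both sides, while 2 members with 0 counts in the eil3 eil1-labelled group (TGG1 and LOX2) lie beyond the axis.

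Outside these lists the largest losses at a level of at least 5 CPM included enzymes and transporters of other pathways. BCA3 (AT1G23730), a beta carbonic anhydrase, held 165, 263 and 293 CPM in Col-0 and 3.82, 2.77 and 3.20 CPM in the eil3 eil1-labelled roots. The eil3 eil1-labelled values were all under 5 CPM, and the difference was -6.21 ± 0.42 (adjusted p = 5.28e-10). PYD4 (AT3G08860), an aminotransferase named in pyrimidine and beta-alanine breakdown, held 270.4, 312 and 326 CPM and 10.8, 8.83 and 9.59 CPM (-4.96 ± 0.17), again without any overlap. AT1G75280, an NmrA-like protein, fell from 889.6 ± 66.8 to 58.3 ± 9.14 CPM (-3.93 ± 0.17).

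MSRB4, a methionine sulfoxide reductase, fell from 77.7, 78.2 and 80.6 CPM to 7.12, 5.54 and 5.86 CPM (-3.68 ± 0.13). A member of the same family moved the other way, since MSRB6 rose from 1.45 ± 0.136 to 9.08 ± 2.57 CPM (2.64 ± 0.17). ICS2, an isochorismate synthase, fell from 65.3 ± 14.4 to 5.29 ± 2.07 CPM (-3.61 ± 0.33), and UMAMIT14, an amino acid exporter, from 15.3 ± 1.92 to 1.09 ± 0.480 CPM (-3.78 ± 0.48). AT3G05400 and AT3G54450, both annotated in the major facilitator superfamily of membrane transporters, differed by -4.12 ± 0.24 and -4.96 ± 0.43. RL3, a RADIALIS-like MYB protein, differed by -3.27 ± 0.24. Other large losses were those of AT2G32487 (-4.19 ± 0.30), the transmembrane protein AT4G31330 (-3.65 ± 0.18) and the TRAF-like protein AT4G01390 (-3.26 ± 0.51).

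On the higher side, AT2G44130, a kelch repeat protein, held 0 in the 3 Col-0 -S libraries and 21.0, 13.3 and 17.4 CPM in the eil3 eil1-labelled ones, at least 556-fold higher against a floor of 3 counts over the group. In Col-0 roots at +S it was present, at 3.72 ± 1.37 CPM. PDF2.1, a defensin-like peptide, rose from 7.801, 9.99 and 12.8 CPM to 49.7, 47.9 and 51.7 CPM (2.29 ± 0.24), and TPX2 (AT1G65970), a thioredoxin-dependent peroxidase, from 33.1 ± 2.62 to 126 ± 18.6 CPM (1.93 ± 0.16). ATC, a relative of the floral repressor TFL1, rose from 9.72, 9.37 and 9.18 CPM to 34.8, 37.2 and 32.7 CPM (1.89 ± 0.16), and JMJD5, a jumonji-domain protein of the circadian clock, from 2.47 ± 0.220 to 11.1 ± 1.15 CPM (2.17 ± 0.15). The cytochrome P450 CYP71A20 (2.04 ± 0.26), the RING protein ATL8 (2.18 ± 0.27), the glycine-rich protein GRP-3 (1.97 ± 0.34) and RTFL7, a small peptide gene (2.47 ± 0.35), rose as well. AT4G39675 (2.27 ± 0.23), AT3G05770 (2.44 ± 0.30) and AT4G16000 (2.15 ± 0.53) are annotated without a function, and the call of AT4G16000 was lost without eil3 eil1-labelled replicate 1 (1.62, adjusted p = 0.0691).

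MRD1 and AT5G35935 differed by genotype at both sulfate levels. MRD1 (AT1G53480), named for its response in the mto1 methionine mutant, held 41.4, 39.6 and 42.6 CPM in Col-0 and 0 in each eil3 eil1-labelled library at -S, at least 1355-fold lower against 3 counts over the group. At +S Col-0 held 47.9 ± 4.88 CPM and the eil3 eil1-labelled roots again 0. The eil3-labelled line held 0.835 ± 1.42 CPM at -S and the eil1-labelled line 0.0210 ± 0.0364 CPM. AT5G35935 held 1.74, 2.90 and 1.33 CPM in Col-0 and 35.2, 36.2 and 37.1 CPM in the eil3 eil1-labelled roots at -S (4.19 ± 0.19), 2.63 ± 1.1 and 37.4 ± 1.201 CPM at +S, and 34.4 ± 1.398 and 33.4 ± 2.84 CPM in the single lines at -S. All 3 mutant-labelled lines thus sat on the same side of Col-0 at these loci.

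**Figure D4:**
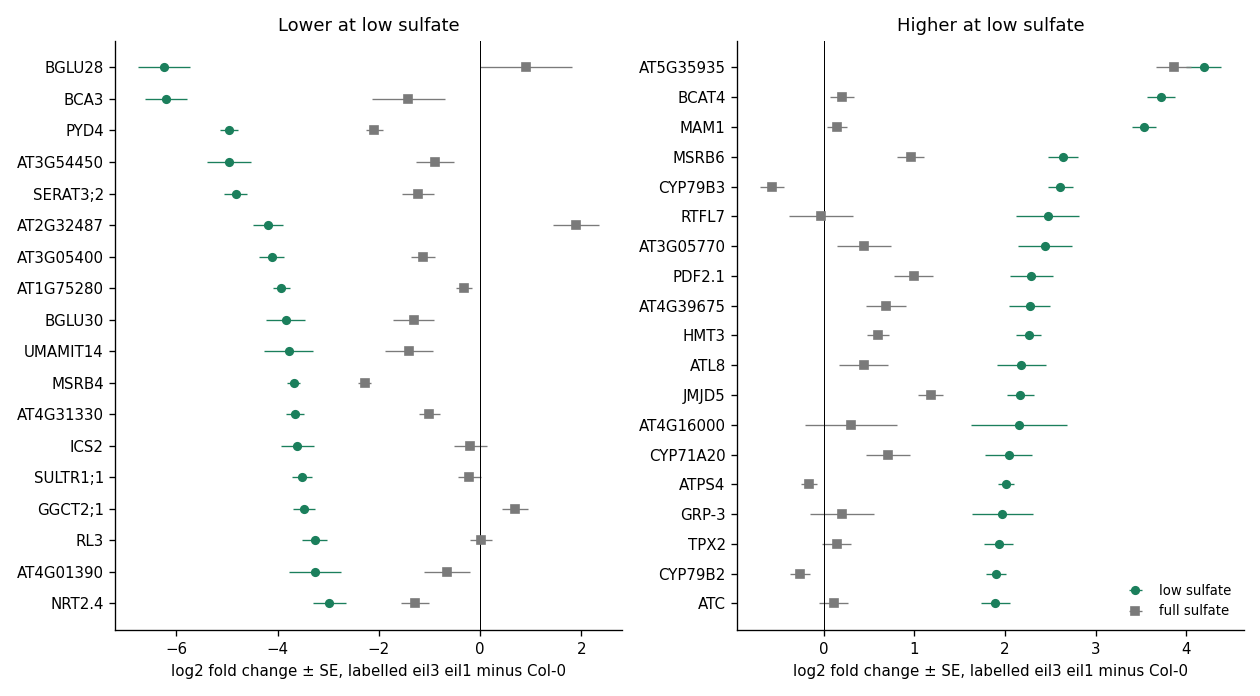
Log2 fold change ± SE of the 20 largest losses (left) and gains (right) at -S, leaving out MRD1, LOX2 and AT2G44130, where 1 group is at 0. Green dots are the -S comparison and grey squares the same comparison at +S, where most loci lie nearer 0, and AT5G35935 and MSRB4 differ at both levels.

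The same genotypes were set against each other at full sulfate. At +S 193 of 21954 loci passed, 0.879% of those tested, 98 higher (0.446%) and 95 lower (0.433%). Total-count scaling turned that split to 142 higher and 73 lower. The interaction test of genotype and sulfate passed for 840 loci (3.83%), 506 positive (2.3%) and 334 negative (1.52%), with 394 positive and 427 negative under total-count scaling. The interaction uses the libraries of both comparisons, and it cannot separate sulfate from the MgCl2 added at -S. All 7 OAS cluster genes had a negative interaction, from -4.26 for SDI1 to -0.45 for AT1G04770, while at +S SDI1 alone of the 7 passed. The SDI1 level at +S was 11.8 ± 2.23 CPM in Col-0 and 31.8 ± 4.73 CPM in the eil3 eil1-labelled roots (1.42 ± 0.20), so that the eil3 eil1-labelled roots were above Col-0 at +S and below it at -S.

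Transporters had a negative interaction for 6 of 12 members, against 1.52% of all loci. SULTR2;1 changed sign as SDI1 did, with 25.2 ± 2.34 CPM in Col-0 and 130.2 ± 14.9 CPM in the eil3 eil1-labelled roots at +S (2.37 ± 0.17, interaction -3.07 ± 0.23). SULTR4;2 was lower at both levels (-1.22 ± 0.10 at +S), as was APR2 (-1.03 ± 0.067 at +S). Of the aliphatic glucosinolate genes 18 of 24 had a positive interaction and 1, MYB28, a negative one (-1.12), against 2.3% and 1.52% of all loci. At +S the flavin monooxygenase FMO-GSOX2 alone of the 24 passed (-0.82 ± 0.19). The BCAT4 level at +S was 344 ± 27.1 CPM in Col-0 and 394 ± 45.5 CPM in the eil3 eil1-labelled roots, a difference of 0.20 ± 0.13 that did not pass. Indolic genes had a positive interaction for 6 of 18 and a negative one for GGP1 (-0.42), beside the same shares of all loci. CYP79B3 was lower at +S (-0.57 ± 0.13) and higher at -S. EIL1 was lower at +S too (-1.70 ± 0.10, interaction 0.18 ± 0.14, adjusted p = 0.596). These counts moved with single libraries. Leaving out Col-0 +S replicate 2 or 3 gave 115 or 99 calls at +S, and leaving out eil3 eil1-labelled +S replicate 1, 2 or 3 gave 114, 65 or 86. The interaction count was 526 without eil3 eil1-labelled +S replicate 2.

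The single lines at -S show how the eil3 eil1-labelled roots lay beside each of them. Against the eil3-labelled roots 351 loci passed (1.6%), 209 higher (0.952%) and 142 lower (0.647%) in the eil3 eil1-labelled roots. Against the eil1-labelled roots 1568 passed (7.14%), 821 higher (3.74%) and 747 lower (3.4%). OAS cluster genes were lower in the eil3 eil1-labelled roots for 4 of 7 against the eil3-labelled line and 5 of 7 against the eil1-labelled line. The SDI1 level was 325 ± 34.4 CPM in eil3-labelled roots and 417 ± 101 CPM in eil1-labelled roots, both between Col-0 and the eil3 eil1-labelled level of 159 ± 21.5 CPM (-1.03 ± 0.18 and -1.39 ± 0.18). SULTR1;1 took the same order, with 31.2 ± 1.94 and 84.6 ± 15.7 CPM (-0.90 ± 0.19 and -2.34 ± 0.19). For SULTR1;2 the levels were 455 ± 30.5 CPM in eil3-labelled and 939 ± 89.9 CPM in eil1-labelled roots, beside 933 ± 70.5 CPM in Col-0.

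Aliphatic glucosinolate genes were mostly higher in the eil3 eil1-labelled roots than in either single line. This held for 17 of 24 against the eil3-labelled line (0.952% of all loci) and 19 of 24 against the eil1-labelled line (3.74%), where MYB28 was lower (-0.82). For BCAT4 the levels were 78.5 ± 9.71 CPM in eil3-labelled and 57.7 ± 15.0 CPM in eil1-labelled roots, against 220.0 ± 18.3 CPM in the eil3 eil1-labelled ones (1.49 ± 0.14 and 1.93 ± 0.14), and MAM1 at 44.5 ± 6.75 and 38.01 ± 5.45 CPM against 116 ± 1.84 CPM. ATPS4 stood at 217 ± 5.12 and 133 ± 11.3 CPM, again below the eil3 eil1-labelled level of 386 ± 16.0 CPM (0.83 ± 0.088 and 1.54 ± 0.09). Other losses were also found in the eil3-labelled line, where BGLU28 (15.0 ± 1.69 CPM), PYD4 (12.7 ± 0.447 CPM), BCA3 (4.58 ± 1.65 CPM) and NSP5 (104 ± 10.1 CPM) did not pass against the eil3 eil1-labelled roots, with differences of -0.44 ± 0.46, -0.38 ± 0.17, -0.50 ± 0.46 and -0.00 ± 0.12. In the eil1-labelled roots these genes stood at 161 ± 129, 127 ± 25.0, 53.99 ± 35.7 and 198 ± 27.97 CPM, all above the eil3 eil1-labelled level past the threshold.

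A test of whether the eil3 eil1-labelled difference from Col-0 departs from the sum of the eil3-labelled and eil1-labelled differences on the log2 scale passed for 541 loci (2.46%), 306 above (1.39%) and 235 below (1.07%) the sum. For EIL1 itself it passed (-1.05 ± 0.14, adjusted p = 0.00044), and for EIL3 it did not (0.45 ± 0.14, adjusted p = 0.0988). Among OAS cluster genes it passed for GGCT2;1, which lay above the sum by 1.09 ± 0.29, that is, fell less than the added single differences. Among transporters it passed for SULTR2;1 (1.62 ± 0.23), SULTR3;4 (0.82 ± 0.20), SULTR1;2 (-0.68 ± 0.17) and SULTR3;5 (-1.22 ± 0.30), and among 24 aliphatic glucosinolate genes for GSTU20 (0.44 ± 0.11). For BCAT4 the departure was -0.31 ± 0.20 (adjusted p = 0.524) and for SDI1 0.42 ± 0.25 (adjusted p = 0.459). The count against the eil3-labelled line was 150 without eil3-labelled -S replicate 1 and 151 without eil3 eil1-labelled -S replicate 1, that against the eil1-labelled line was 883 without eil1-labelled -S replicate 2 and 868 without eil3 eil1-labelled -S replicate 1, and that of the departure was 303 without Col-0 -S replicate 3 and 328 without eil1-labelled -S replicate 1. A departure that misses the threshold does not show that the differences add.

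**Figure D5:**
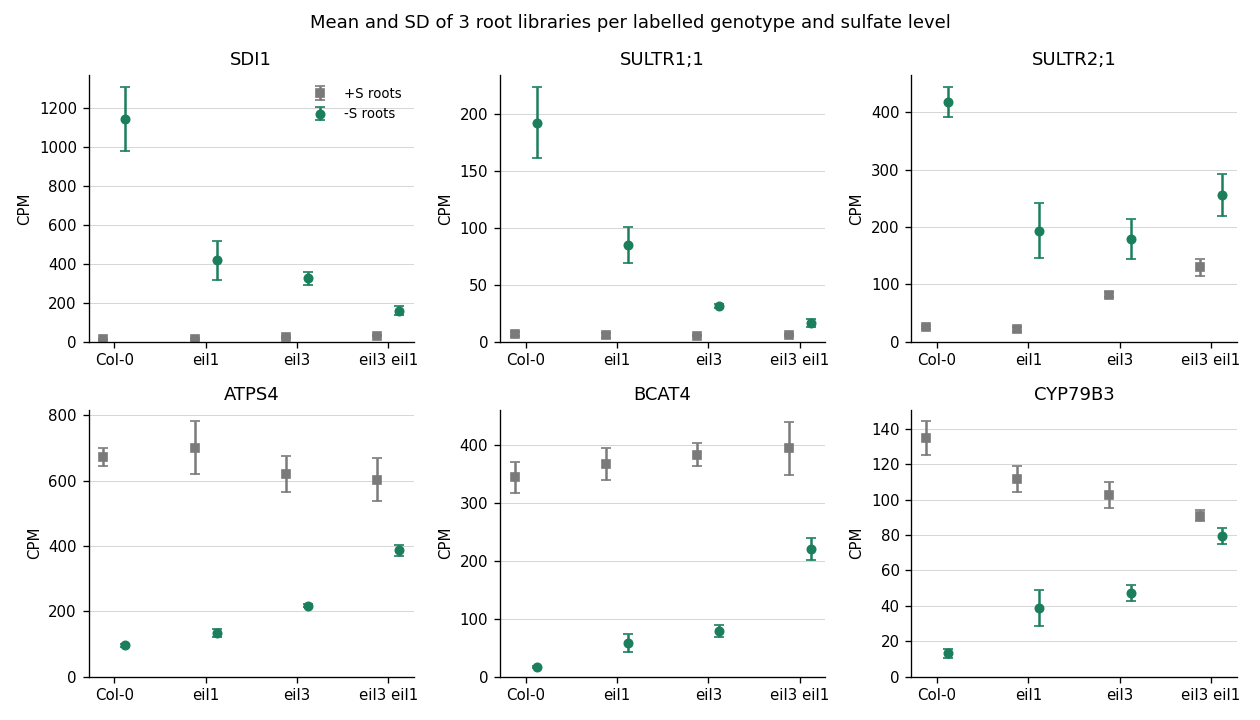
Mean CPM and SD of 3 root libraries for 6 genes in each labelled genotype, at +S (grey squares) and -S (green dots). At -S SDI1 and SULTR1;1 step down from Col-0 to the eil3 eil1-labelled roots and ATPS4, BCAT4 and CYP79B3 step up, while SULTR2;1 at +S is highest in the roots labelled eil3 and eil3 eil1.

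Shoots gave the same genotype contrast in libraries that the root comparison does not use, although the labels do not say whether roots and shoots came from the same plants. At -S 11620 of 21697 shoot loci passed (53.6%), 5952 higher (27.4%) and 5668 lower (26.1%). Total-count scaling, which shifted the median of all shoot loci to 0.12, gave 7617 higher and 4280 lower. Of 20633 loci tested in both organs, 1200 were lower in the eil3 eil1-labelled roots, and 587 of these (48.9%) were also lower in the shoots, against 25.6% of all loci tested. They made up 11.1% of the loci lower in shoots. Another 151 of the 1200 (12.6%) were higher in shoots, against 28% of all. Among the 1276 loci higher in roots, 380 (29.8%) were also higher in shoots, against 28% of all, and 339 (26.6%) were lower there, against 25.6%. SULTR1;1 (-4.45 in shoots), BGLU28 (-7.71) and PYD4 (-4.67) fell in both organs and BCAT4 (3.33) and ATPS4 (2.4) rose in both. Other genes went opposite ways, as SULTR2;1 (-0.70 in roots and 0.65 in shoots), AT1G04770 (-0.43 and 0.32) and APK2 (1.14 and -1.36). Of the 7 OAS cluster genes, 4 were lower and 1 higher in shoots. Indolic genes did not go together, with 11 of 18 higher in roots and 12 of 18 lower in shoots, as for CYP83B1 (0.60 in roots and -1.83 in shoots), and whether the organs differ was not tested for them.

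Low sulfate was compared with full sulfate in Col-0 shoots, in other libraries than those of the roots. It came with 0.75 mM added MgCl2, so sulfate and chloride cannot be told apart in this comparison. There 7570 of 21697 loci (34.9%) changed, 3677 raised (16.9%) and 3893 lowered (17.9%). Total-count scaling gave 5711 raised and 2453 lowered. Of the 1200 loci lower in the eil3 eil1-labelled roots, 363 (30.2%) were raised by low sulfate in Col-0 shoots, against 17.3% of all loci, and 189 (15.8%) were lowered, against 18.2%. Of the 1276 loci higher in the eil3 eil1-labelled roots, 392 (30.7%) were lowered in Col-0 shoots, against 18.2%, and 236 (18.5%) were raised, against 17.3%. Among loci lower by a log2 of at least 1 the share raised in Col-0 shoots was 45.8% (98 of 214), and among those higher by that much the share lowered was 37.9% (78 of 206). These shares are given as a description.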

How the data were processed

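The deposited table holds estimated counts of 48 libraries, for which the submitters' processing notes list kallisto 0.43.1, Trimmomatic 0.36, FastQC and the build TAIR10. It gives 1 target per locus (33602) with an effective length. Of 21225 loci with introns, 75.8% have a target length nearer to the gene span than to any spliced transcript of the RefSeq annotation, so counts may include intron reads. Of the deposited estimated counts 7.8% were not exactly whole (no tolerance was allowed), and all were rounded. The deposited TPM columns were not used.

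Counts were tested with edgeR 4.0.16 (TMM, filterByExpr, quasi-likelihood F test) in R 4.3.3, fitting the 8 groups of an organ (24 libraries) together without a replicate block, so that all groups share 1 estimate of the spread. The threshold was a Benjamini-Hochberg adjusted p of 0.05, counted over every tested locus of the fit. The SE of a log2 fold change is its size divided by the square root of F and is approximate. The edgeR step was also run on counts simulated from its own fitted levels and spread. Such a run cannot show how the test does where real counts depart from that model. Replicates are biological per the labels, and shoot columns cannot be tied to single samples. Counting floors cover counting error only.

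The members, gene lists and tests were chosen with earlier results of these data known. Named are EIL1, EIL3, every OAS cluster and sulfate transport gene, up to 6 genes with the smallest p-values of each other list, and the 20 loci with the largest rise and the 20 with the largest fall whose groups do not overlap and whose higher group averages 5 CPM or more. Loci without a symbol need not be named. Exceptions are stated. Of the targets, 32835 matched RefSeq loci, which gave names, products and sequences (TAIR10.1).

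Alternatives were RLE size factors, total-count scaling, no count filter, DESeq2 1.42.0, limma 3.58.1 (limma-trend on log2(TPM + 1), with TPM computed from the rounded counts and effective lengths), a fit restricted to the groups compared, a replicate block, and leaving out each library. Figures were drawn with matplotlib 3.10.9 and tables made with pandas 2.3.3 in Python 3.11.15. 1 gene that the naming rule chose is counted in the totals but not reported here.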

Additional observations from a re-analysis of the deposited data

Results flagged for a closer look

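A set of 5 named genes differed from Col-0 in opposite directions at the 2 sulfate levels in the eil3 eil1-labelled roots, and the interaction test passed for each. The transcript of SDI1, the glucosinolate repressor, was lower at -S (-2.84 ± 0.19, log2 ± SE) and higher at +S (1.42 ± 0.20), an interaction of -4.26 ± 0.27 (edgeR adjusted p = 8.28e-10). SULTR2;1, the vascular sulfate transporter, was lower at -S (-0.70 ± 0.16) and higher at +S (2.37 ± 0.17), an interaction of -3.07 ± 0.23. In Col-0 it went from 25.2 ± 2.34 CPM at +S to 418 ± 26.4 CPM at -S, and in the eil3 eil1-labelled roots from 130.2 ± 14.9 to 256 ± 36.4 CPM. CYP79B3, the entry enzyme of indolic glucosinolates, went the other way, higher at -S (2.61 ± 0.14) and lower at +S (-0.57 ± 0.13), an interaction of 3.17 ± 0.19. CYP83B1, the next enzyme, was higher at -S (0.60 ± 0.078) and lower at +S (-0.35 ± 0.077), an interaction of 0.95 ± 0.11. AT2G32487, an uncharacterized protein, held 37.9 ± 11.5 CPM in Col-0 and 2.05 ± 0.676 CPM in the eil3 eil1-labelled roots at -S, and 0.394 ± 0.0642 and 1.47 ± 0.404 CPM at +S, an interaction of -6.10 ± 0.52. In all, 840 of 21954 loci passed the interaction test.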

How the results depend on the processing

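Of 21954 loci, the -S comparison called 2647 with RLE factors, 2626 with total-count scaling and 2467 with limma-trend (41.2% of them higher against 50.2%). It called 2445 of 28100 without the count filter, 2993 of 21947 with DESeq2, 2362 of 21322 in a fit of the compared groups alone, and 1786 to 2278 of 22127 to 22156 with 1 library left out. Loci lower numbered 858 to 1070 in the leave-one-out fits, against 1319. The replicate block gave 2713 calls. Between the groups compared, deviations of same-numbered libraries correlated at -0.0567, -0.227 and 0.111, and not every library correlated best with its own. With 3 libraries a group, these values cannot decide whether same-numbered libraries share a batch. The block was not run for shoots, whose columns cannot be tied to samples. At +S the 193 calls became 349 with the block, 467 with DESeq2, 296 with limma-trend (81.4% higher), 325 with the compared groups alone, and 65 to 147 with 1 library left out. The interaction count of 840 was 526 to 934 in leave-one-out fits, and limma-trend gave 262 positive and 678 negative interactions. Against the eil3-labelled line the 351 calls became 662 with DESeq2, 200 with the compared groups alone and 150 to 296 in leave-one-out fits. Against the eil1-labelled line the 1568 became 1007 with the compared groups alone and 868 to 1422 in leave-one-out fits. The departure from the sum called 541 loci, 911 with DESeq2 and 303 to 792 in leave-one-out fits. Aliphatic genes lower numbered 2 with total-count scaling, DESeq2, limma-trend and the compared groups alone, and 1 to 2 in leave-one-out fits. Of the 156 loci that the naming rule chose, 0 lost their call with RLE, total-count scaling, no filter or DESeq2 (MRD1 had no adjusted p there). The block lost 1 (ACO5) and limma-trend lost 6 (ETR1, ACO5, AOC1, CBL, FAR1 and FAR4). The compared groups alone lost 2 of 153 (JAR1 and FAR4). With 1 library left out 7 to 13 lost their call, and none reversed in any alternative. Calls gained numbered 1 with RLE, no filter or limma-trend, 0 with total-count scaling, 2 with the block (MYC2, EDF2), 5 with DESeq2, 7 with the compared groups alone (among them MYC2, CASP4, PRP3, COBL9, LHCB1.1 and LHCB1.2), and 0 to 3 with 1 library left out. The cause of these moves was not tested. Fits that leave out a library also hold fewer samples.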

Other observations

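Loci that passed in the eil3 eil1-labelled roots at -S were spread over all chromosomes, from 11.6% of the tested loci of chromosome 1 to 13.2% of those of chromosome 4. Within 0.5 Mb of EIL1 16 of 189 tested loci passed (8.47%), and within 0.5 Mb of EIL3 27 of 278 (9.71%), both below the 12.1% of all tested loci. These shares are a description.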
